A study of Arabidopsis thaliana with 24 samples.

Results

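The response of Arabidopsis seedlings to nitrogen in the dark was read from 6 of the 24 ATH1 arrays of the study, the 3 WT-sib arrays labelled +N-L and the 3 labelled -N-L, and every probe set outside the array's own controls was compared. WT-sib is a Col-0 line without the T-DNA insert in bZIP1, taken as a sibling from a backcross of a line heterozygous for it, and so stands for 1 such line. Seedlings of both groups grew for 14 days at 22 °C in days of 16 h light, on 0.5 mM KNO3 and 3 mM sucrose, and were moved at the start of the light period to fresh plates wrapped in a double layer of foil. After 2 h whole seedlings were frozen. The +N plates held 20 mM KNO3 with 20 mM NH4NO3, and the -N plates held KCl instead. Nitrate and ammonium were thus given together and their effects cannot be told apart. The other 18 arrays hold WT-sib in light (+L) with and without N, and bzip1-1, homozygous for the insert in the single exon of bZIP1, under all 4 treatments, 3 arrays per group.

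Nitrate enters root cells through dedicated transporters and is reduced to nitrite by nitrate reductase in the cytosol and to ammonium by nitrite reductase in the plastid. In leaves in light the electrons for the plastid steps come from photosynthesis, while in roots and in darkness they come from sugars through the oxidative pentose phosphate pathway and ferredoxin-NADP reductase. Ammonium is then built into glutamine, glutamate and asparagine. Nitrate itself acts as a signal that raises transcripts of these enzymes and of regulators that feed back on uptake.

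All values are MAS 5.0 signals, which every array scales to a trimmed mean of 500, and changes are differences of mean log2 signal, +N-L minus -N-L, with the standard error (SE) of a limma fit to all 24 arrays. Median signal ran from 182 to 205 over the 6 arrays, no 2 arrays were identical, and none of the 64 control probe sets separated the groups. Whole seedlings were extracted, so fewer cells of a type and less RNA per cell cannot be told apart. Of the leaf photosynthesis enzymes PRK, RCA and SBPASE lay between -0.05 and 0.06, while the root hair expansins EXPA7 and EXPA18, the only 2 root-preferential genes with a named probe set, had -0.20 and 0.68 with overlapping groups and a dim signal for EXPA18. Single arrays were less even. Relative to the -N-L mean, the leaf enzymes averaged -0.01, 0.34 and -0.33 on the +N-L arrays of number 1, 2 and 3. The root genes averaged 0.56, -0.46 and 0.62 there, and 0.66, 0.70 and -1.36 on the -N-L arrays. A difference in organ share between arrays was not tested. The probe set of bZIP1 is not named by the tables used here, so the label of genotype was not checked on it.

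Few single transcripts passed the test in these 6 arrays. Of 22746 probe sets 2 passed an adjusted p of 0.05 (0.00879%), 1 that rose (0.0044%) and 1 that fell (0.0044%). The fit has no term for replicate number, and more probe sets passed with such a term, as given further below. At an unadjusted p of 0.01, 172 probe sets were reached, 86 in each direction, fewer than the 227 that make up 1% of the probe sets. In 838 probe sets (3.68%) all +N-L arrays lay above all -N-L arrays, in 730 (3.21%) all lay below, and 49.9% of the probe sets had a change above 0.

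CIPK3 (AT2G26980), a protein kinase that works with calcineurin B-like calcium sensors, was the transcript that rose. Its signal was 436, 307 and 304 on the -N-L arrays and 1955, 1651 and 1582 on the +N-L arrays. Every array with nitrogen stood far above every array without it. The change was 2.32 on the log2 scale (SE 0.26, limma adjusted p = 0.00031, higher in 3 of 3 arrays). CIPK3 had similar values elsewhere, at 1.73 (SE 0.26) in WT-sib in light and 1.82 (SE 0.26) in bzip1-1 in the dark.

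FRK1 (AT2G19190), a leucine-rich repeat receptor kinase whose transcript is a widely used marker of the response to bacterial flagellin, was the transcript that fell. Its signal was 2370, 3122 and 2409 without nitrogen and 356, 346 and 473 with it. The groups lay far apart and each was tight. FRK1 fell by 2.75 on the log2 scale (SE 0.37, limma adjusted p = 0.0045). The call was lost when an array of number 2 was left out: without the -N-L array of that number the adjusted p was 0.067 at -2.62, and without the +N-L array of number 2 it was 0.060 at -2.67. In light the change was -0.94 and in bzip1-1 in the dark -1.62.

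**Figure D1:**
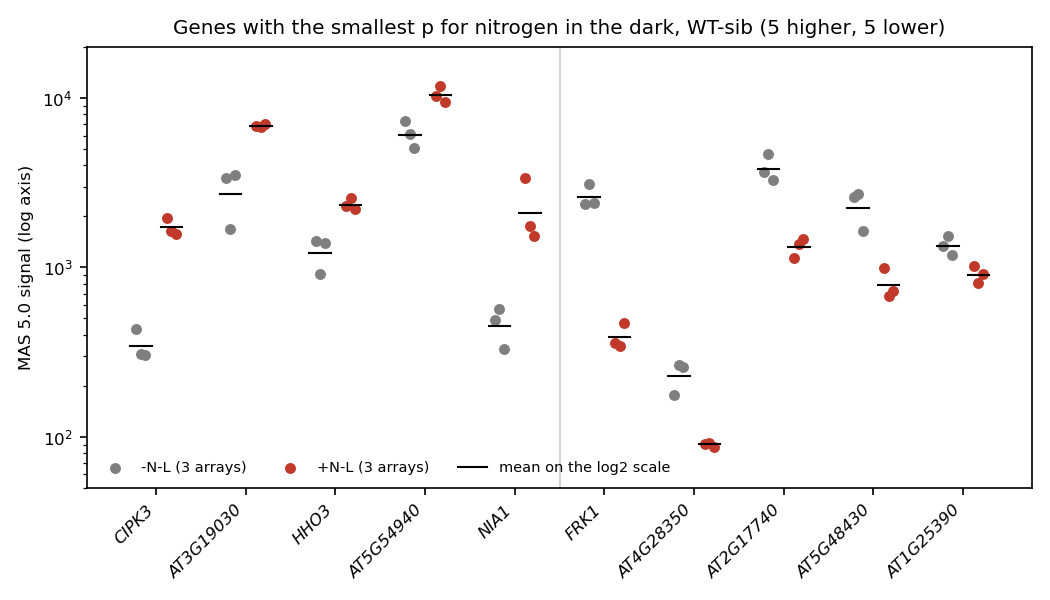
MAS 5.0 signal on a log axis for the 5 genes of smallest p in each direction, with 1 point per array, grey for -N-L and red for +N-L, and a bar at the mean of log2 signal. The arrays of the 2 groups do not overlap for any of the 10 genes, which were picked by their p, and CIPK3 and FRK1 are the pair past the threshold.

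The next genes by p did not pass in this fit, which has no term for replicate number. AT3G19030, of unassigned function here, had 3371, 1682 and 3506 without nitrogen and 6827, 6740 and 7024 with it, a change of 1.34 (SE 0.26, adjusted p = 0.29). HHO3 (AT1G25550), a GARP-family repressor of nitrate uptake genes, had 1440, 915 and 1392 against 2296, 2572 and 2200, a change of 0.94 (SE 0.21). The bright transcript AT5G54940, which encodes a SUI1-type translation factor, had 7290, 6141 and 5035 against 10207, 11722 and 9470, a change of 0.78 (SE 0.18). All 3 genes were higher on every +N-L array, and the 3 arrays with nitrogen were closer to each other than those without it for AT3G19030. With a term for replicate number added to the fit, AT3G19030 passed (limma adjusted p = 0.029), while HHO3 (0.080) and AT5G54940 (0.19) did not.

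On the lower side the genes next to FRK1 by p did not pass in this fit either. AT4G28350, an L-type lectin receptor kinase, had 176, 265 and 260 without nitrogen and 91.0, 92.5 and 87.2 with it, a change of -1.35 (SE 0.25, adjusted p = 0.20). AT2G17740, a cysteine- and histidine-rich C1 domain protein, had 3638, 4690 and 3270 against 1136, 1382 and 1472, a change of -1.53 (SE 0.34). AT5G48430 had 2589, 2710 and 1635 against 994, 676 and 723, a change of -1.52 (SE 0.34). AT1G25390, a receptor-like kinase, had 1336, 1536 and 1181 against 1014, 805 and 913, a change of -0.57 (SE 0.13). For these 4 genes every +N-L array was lower, with adjusted p between 0.20 and 0.63. With the term for replicate number AT4G28350, AT5G48430 and AT2G17740 passed (limma adjusted p = 0.025, 0.026 and 0.048), while AT1G25390 (0.17) did not.

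**Figure D2:**
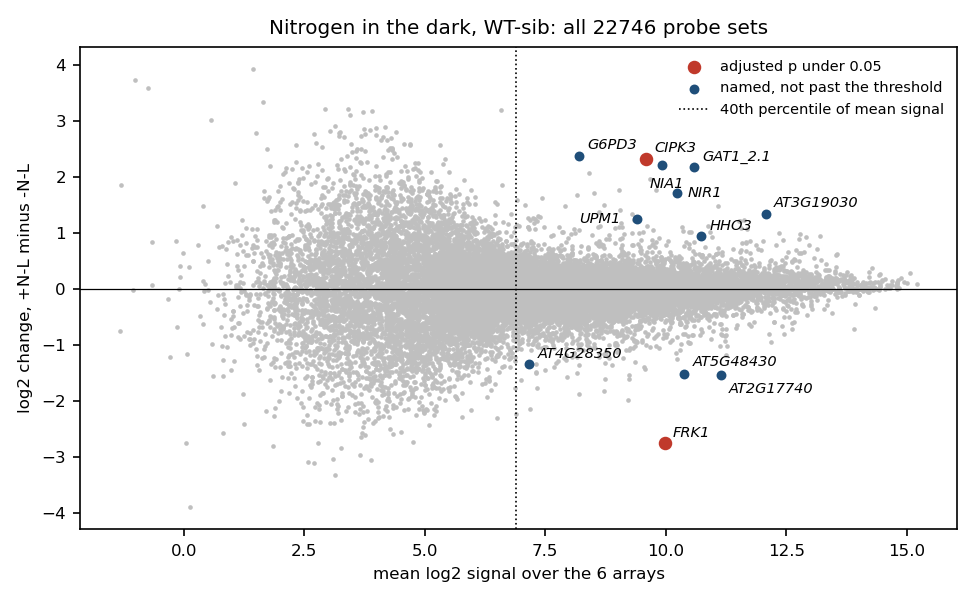
Change with nitrogen in the dark, as log2 of +N-L minus -N-L, against the mean log2 signal of the 6 arrays, with 1 grey point per probe set, the 2 that passed in red and other named genes in blue. The grey cloud is wide to the left of the dotted line at the 40th percentile of signal and narrow to its right, where CIPK3 lies above it at 2.32 and FRK1 below it at -2.75.

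Large changes were mostly those of dim probe sets. A change of at least 1 in either direction was seen in 1681 of 9099 probe sets (18.5%) at or below the 40th percentile of mean signal, where the median SE was 0.74, and in 147 of 13647 (1.08%) above it, where the median SE was 0.26. Genes are therefore named below from the brighter probe sets, apart from members of lists. Of 85 list members measured 72 were above that percentile, and the dim ones are said with their lists.

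Transcripts of nitrate reduction were higher with nitrogen throughout the list, though none passed. All 5 measured genes had non-overlapping groups, beside 3.68% of all probe sets with all +N-L arrays higher. Their median change was 1.25 against -0.00077 over all probe sets. The study's tables of regulated genes, which were chosen on these samples, name all 5 probe sets, so this count is not independent evidence of the direction. NIA1 (AT1G77760), the nitrate reductase gene that responds most to nitrate, had 493, 569 and 331 without nitrogen and 3356, 1760 and 1527 with it, a change of 2.20 (SE 0.53, adjusted p = 0.63). NIA1 passed with the term for replicate number (limma adjusted p = 0.048). NIA2 (AT1G37130), which encodes the major nitrate reductase, was already bright, with 9897, 7186 and 12245 against 12520, 15317 and 15721, a change of 0.60 (SE 0.20). The lowest NIA2 array with nitrogen was only just above the highest without it.

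The partners of nitrate reductase varied more between the arrays with nitrogen. NIR1 (AT2G15620), nitrite reductase, had 947, 567 and 552 without nitrogen and 5077, 1013 and 2012 with it, a change of 1.71 (SE 0.69), or 1.10 without the +N-L array of number 1. UPM1 (AT5G40850), which makes the precursor of the siroheme cofactor of nitrite reductase, had 427, 415 and 484 against 1834, 612 and 1033, a change of 1.25 (SE 0.43). GLB1 (AT2G16060), a haemoglobin that scavenges nitric oxide, had 297, 448 and 476 against 951, 487 and 1034, a change of 0.97 (SE 0.43). In NIR1, UPM1 and GLB1 the +N-L array of number 2 was the lowest of the 3 and close to the -N-L arrays.

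The genes that supply reductant followed the same order of arrays. Of 6 measured genes 3 are named only by the study's tables. In 3 all +N-L arrays lay above the others, beside 3.68% of all probe sets, and the median change was 0.94. G6PD3 (AT1G24280), a plastid glucose 6-phosphate dehydrogenase at the entry of the oxidative pentose phosphate pathway, had 125, 180 and 94.9 without nitrogen and 1374, 335 and 647 with it, a change of 2.37 (SE 0.73). G6PD2 (AT5G13110), a second plastid form, had 671, 573 and 630 against 1487, 769 and 1305, a change of 0.87 (SE 0.31). PGD1 (AT1G64190), a 6-phosphogluconate dehydrogenase of the next oxidative step, had 1336, 1478 and 1371 against 2518, 1876 and 2002, a change of 0.60 (SE 0.34). These 3 were higher on every +N-L array, and their standard errors come from the spread within all 8 groups.

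The groups overlapped for the remaining 3 genes. RFNR1 (AT4G05390), the root-type ferredoxin-NADP reductase, had 312, 388 and 277 without nitrogen and 1556, 319 and 1274 with it, a change of 1.41 (SE 0.57). PGD3 (AT5G41670) had 528, 595 and 458 against 2192, 592 and 895, a change of 1.01 (SE 0.59), or 0.48 without the +N-L array of number 1. In both genes the +N-L array of number 2 lay within the range of the -N-L arrays. PGD2 had -0.09.

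Across these pathways the 3 arrays with nitrogen were not alike. Relative to the -N-L mean, the mean over the 5 genes of nitrate reduction was 1.90, 0.80 and 1.33 on the +N-L arrays of number 1, 2 and 3, and over the 6 genes of reductant supply it was 1.65, 0.33 and 1.11. Without the +N-L array of number 1 the median changes of the 2 lists were 0.85 and 0.58. The array of number 1 was the highest of the 3 for 6 of 6 reductant genes and 3 of 5 genes of nitrate reduction. The array of number 2 was the highest for none of either list.

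**Figure D3:**
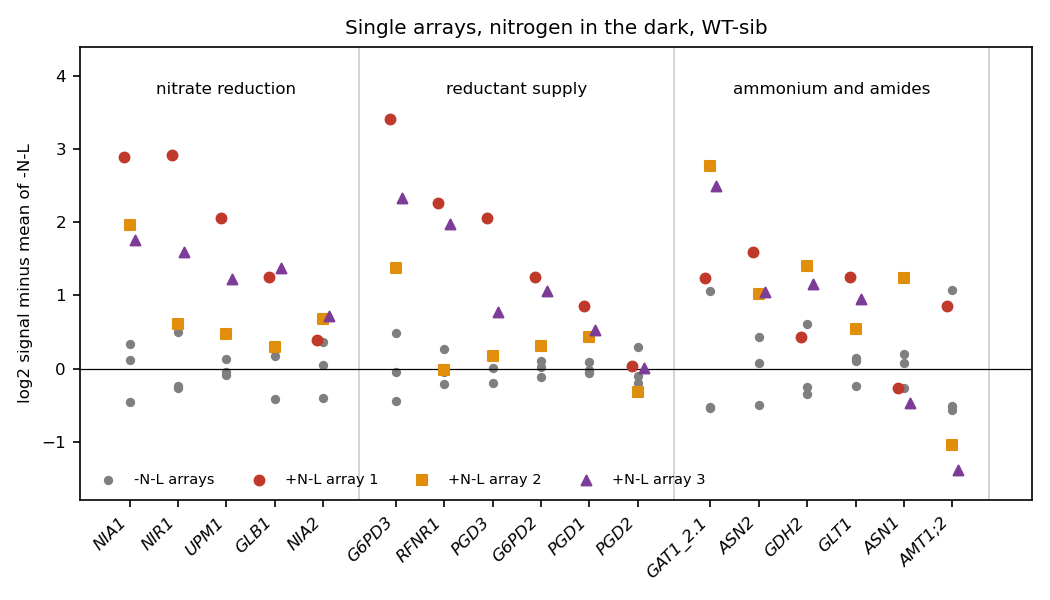
Log2 signal of single arrays minus the mean of the 3 -N-L arrays, for measured genes of nitrate reduction, reductant supply, and ammonium assimilation and amides, with grey points for -N-L arrays and a marker for each +N-L array. In the first 2 blocks the array of number 1 (circles) tends to lie highest and that of number 2 (squares) lowest, at means of 1.65 and 0.33 for reductant supply, while for GAT1_2.1 the array of number 1 is the lowest of the 3.

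Genes that carry ammonium into amides were also mostly higher. Of 6 measured genes, 5 of which the study's tables name, 3 had non-overlapping higher groups, beside 3.68% of all probe sets. The median change was 0.96. GAT1_2.1 (AT1G15040), a class I glutamine amidotransferase-like protein, had 504, 500 and 1507 without nitrogen and 1703, 4944 and 4096 with it, a change of 2.17 (SE 0.73). ASN2 (AT5G65010), an asparagine synthetase, had 569, 298 and 447 against 1277, 856 and 878, a change of 1.22 (SE 0.39). GLT1 (AT5G53460), the NADH-dependent glutamate synthase, had 1592, 1548 and 1225 against 3456, 2100 and 2806, a change of 0.92 (SE 0.30). For GAT1_2.1 the 2 groups almost met, between the -N-L array of number 3 and the +N-L array of number 1. A second, dim probe set of GAT1_2.1 had overlapping groups, with 7.99, 49.6 and 97.1 against 71.5, 227 and 93.0. The 2 probe sets disagreed in WT-sib in light, where the change was 0.59 for the dim one and 4.88 for the other. The other was itself dim in WT-sib in light without nitrogen, with signals from 9.07 to 22.4. With 32 added to every signal, its change in light was 3.19, so the size of 4.88 is not well measured.

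The other members of that list had overlapping groups. GDH2 (AT5G07440), a subunit of glutamate dehydrogenase, had 2899, 3107 and 5666 against 4987, 9837 and 8256, a change of 1.00 (SE 0.48). ASN1, the asparagine synthetase induced by darkness, had 0.16, and the ammonium transporter AMT1;2 had -0.52.

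The transporters of nitrate showed no common direction. The 5 measured genes lay between -1.60 and 0.34 with a median of -0.25, or 0.12 without the -N-L array of number 2, and no group separated. The value of -1.60 (SE 0.88) is that of NRT2.5 (AT1G12940), a high-affinity transporter of nitrogen-starved plants, which had 643, 2369 and 267 without nitrogen and 592, 159 and 154 with it. The -N-L array of number 2 alone was far above the others. NRT1.1, the dual-affinity transporter and sensor, had -0.25 and its relative NRT1.2 had -0.33, while the vacuolar exchanger CLCA had 0.34 and the partner protein NRT3.1 had 0.28.

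Among regulators of the nitrate response 15 were measured, 9 of them named only by the study's tables and 2, HHO1 and HHO6, dim. CIPK3 rose, the other 14 did not pass, and 13 of the 15 had values above 0, beside 49.9% of all probe sets. The median was 0.46, or 0.27 without the -N-L array of number 2. All +N-L arrays were higher in 4, CIPK3, HHO3, BT2 and LBD37, beside 3.68% of all probe sets. BT2 (AT3G48360), a BTB-TAZ scaffold protein, was bright in the dark already without nitrogen, with 7106, 4644 and 9298 against 11888, 15103 and 12096, a change of 0.94 (SE 0.80). LBD37 (AT5G67420), a repressor of nitrogen-responsive and anthocyanin genes, had 1212, 863 and 1341 against 1677, 1611 and 1350, a change of 0.46 (SE 0.28), or 0.27 without the -N-L array of number 2. The third +N-L array of LBD37 was barely above the highest -N-L array.

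The LBD relatives and HHO2 had overlapping groups. LBD38 (AT3G49940) had 0.73 (SE 0.37), LBD39 (AT4G37540) had 0.68 (SE 0.41) and HHO2 (AT1G68670), a homologue of HHO3, had 0.55 (SE 0.21). Without the -N-L array of number 2 LBD38 had 0.41 and LBD39 0.20. TCP20 (AT3G27010), a transcription factor that binds promoters of nitrate-responsive genes, ran the other way, with 330, 282 and 305 without nitrogen and 197, 166 and 202 with it, a change of -0.70 (SE 0.17, adjusted p = 0.63). It was the only regulator whose +N-L arrays all lay below the -N-L arrays, as they did in 3.21% of all probe sets. The rest, among them the kinase CIPK23 at 0.19 and the transcription factor NLP8 at -0.28, lay between -0.28 and 0.64.

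A short list of 5 further genes that nitrogen raises was compiled with results of these arrays known, and so gives no independent support. All 5, of which PUB28 was dim, were above 0, beside 49.9% of all probe sets. In 3 all +N-L arrays were higher, beside 3.68%, and the median was 0.99. AT1G49500 had 5193, 3606 and 6970 without nitrogen and 7381, 10500 and 10763 with it, a change of 0.89 (SE 0.37). HPP (AT5G62720), an integral membrane protein of the chloroplast, had 189, 60.7 and 80.0 against 275, 242 and 191, a change of 1.26 (SE 0.50). Both stayed above the -N-L range on every +N-L array, HPP only just on the third.

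No gene of carbon and energy shortage passed. The list of genes induced by darkness or starvation had 11 measured members, 6 of them named only by the study's tables. Of the 11, 10 were above 0, beside 49.9% of all probe sets, with a median of 0.27 and a range from -0.05 to 1.00. That median was 0.03 without the -N-L array of number 1 and 0.64 without the +N-L array of number 1. TPS9 (AT1G23870), a class II trehalose 6-phosphate synthase-like protein, was the only one whose groups did not overlap, with 1508, 933 and 1864 against 2130, 2547 and 2301, a change of 0.75 (SE 0.30). Among 4 measured bZIP factors of groups C and S1, which include partners of bZIP1, BZIP53 (AT3G62420) had 2650, 2536 and 4299 against 4323, 5986 and 6533, a change of 0.85 (SE 0.33), and the others lay between -0.26 and 0.07. BZIP53 was higher on every +N-L array by a small margin. Such separation was thus seen in 1 of the 11 genes and 1 of the 4 bZIPs, beside 3.68% of all probe sets.

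FRK1 was the only gene to pass among 6 measured genes of early defence and touch responses. The other 5, the transcription factors ZAT10, ZAT12, WRKY18, WRKY33 and WRKY53, had 0.34, 0.58, -0.03, 0.06 and -0.46 with overlapping groups, and the median was 0.01. Values lay between -0.08 and 0.08 for 4 light-harvesting genes and between 0.00 and 0.25 for 3 clock genes, the latter for GI, which was dim. The 2 genes of sulfate assimilation had 0.12 and 0.39, and their median ran from -0.0079 to 0.68 with single arrays left out. All 5 heat shock genes were dim and lay between -0.72 and 0.36, and of 4 genes of cytokinin synthesis and response 3 were dim, with IPT3, a cytokinin synthesis enzyme, at 0.56. Over all lists, 85 loci were measured, 61 of them above 0, 20 with all +N-L arrays higher and 2 with all lower, beside 49.9%, 3.68% and 3.21% of all probe sets. The study's tables, chosen on these samples, are the only source of the name for 45 of the 85, so these counts are not independent evidence of a direction.

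The same addition of nitrogen in light allows a test of whether the response in the dark differs. For this comparison 2 arrays are in doubt. AT3G56290 separated the genotypes on the other arrays in light, from 1656 to 2687 in WT-sib and from 6747 to 11651 in bzip1-1, but had 7861 on the array labelled WT-sib -N+L of number 1 and 1806 on the array labelled bzip1-1 -N+L of number 1. Values for light are therefore given with all arrays and then without the array of number 1. No probe set passed the test of the difference between dark and light (0%), 144 reached an unadjusted p of 0.01 and 642 one of 0.05. Without the -N+L arrays of number 1, AT1G05575 passed, at -3.10 (adjusted p = 0.037) against -2.28 with all arrays. In light itself 26 probe sets passed (0.114%).

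Of the 15 regulators 10 had a smaller value in the dark than in light, or 11 without the array of number 1, and none passed the test of the difference. The share over all probe sets is not given here, so the count is not read as a trait of the regulators. With or without that array it was 6 of 6 for early defence and touch genes and 0 of 4 for the bZIPs of groups C and S1. CIPK3, which was also picked by its p in the dark, was among the regulators with the larger value there. BT2 had 12.2, 85.4 and 91.9 in light without nitrogen, which are dim, and 1388, 1034 and 3312 in light with it. Its change was 5.20 in light and 4.25 without the array of number 1, against 0.94 in the dark, a difference of -4.26 (SE 1.13, unadjusted p = 0.0012) or -3.30 (adjusted p = 0.060). With 32 added to every signal, the change in light was 4.31 and the difference -3.38, so the size is not well measured from such dim arrays. The lowest signal of BT2 in the dark, 4644, exceeded its highest in light, 3312. LBD37 had 2.02 in light (2.05 without number 1), a difference of -1.56 (SE 0.39, unadjusted p = 0.00077), and AT3G19030, which is not on the list of regulators, had 2.80 (3.01), a difference of -1.46 (SE 0.37, unadjusted p = 0.00081). For the regulators as a list the median was 1.17 in light (1.27) and 0.46 in the dark, for the 5 genes of nitrate reduction 2.06 (2.17) and 1.25, and for reductant supply 1.06 (1.22) and 0.94.

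UGT73B1, SERAT2;1 and TET5 were the others of the 5 genes of smallest p in this test. UGT73B1 (AT4G34138), a flavonoid glucosyltransferase, had 0.22 (SE 0.24) in the dark and 1.78 in light (1.91 without number 1), a difference of -1.57 (SE 0.33, unadjusted p = 0.00013). SERAT2;1 (AT1G55920), a plastid serine acetyltransferase of cysteine synthesis, had -0.13 (SE 0.30) in the dark and 1.66 in light (1.94), a difference of -1.78 (SE 0.42, unadjusted p = 0.00042). The difference for SERAT2;1 passed with the term for replicate number (limma adjusted p = 0.0022). TET5 (AT4G23410), a tetraspanin, had 169, 120 and 159 in the dark without nitrogen and 202, 292 and 236 with it, a change of 0.70 (SE 0.23), against -0.56 in light (-0.42). FRK1 differed in the same sense as its call, at -1.81 (SE 0.53, unadjusted p = 0.0027), or -1.50 (unadjusted p = 0.013) without number 1. It was picked for its fall in the dark arrays, which also enter this difference, so the choice favours a difference of this sense.

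**Figure D4:**
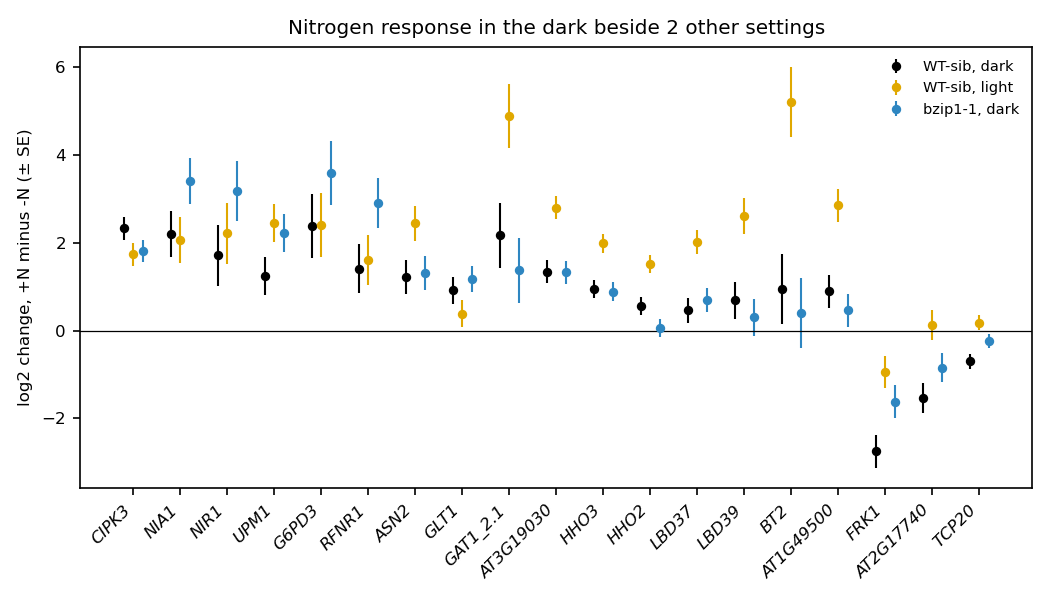
Log2 change with nitrogen, +N minus -N, for 19 named genes in WT-sib in the dark (black), WT-sib in light (yellow, all arrays) and bzip1-1 in the dark (blue), with bars of 1 SE from the fit. CIPK3 lies between 1.73 and 2.32 in all 3 settings, BT2 is at 0.94 in the dark and 5.20 in light, and FRK1 is lowest in WT-sib in the dark at -2.75.

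In bzip1-1 the same treatment in the dark gave 2 passing probe sets (0.00879%), and none passed the test of the difference between the genotypes (0%), where 81 reached an unadjusted p of 0.01 and 683 one of 0.05. Genes of nitrate reduction had a median change of 2.23 in bzip1-1 against 1.25 in WT-sib, and those of reductant supply 2.07 against 0.94. The 3 mutant arrays with nitrogen were not alike for these genes. NIA1 had 7217, 7746 and 949 and NIR1 8280, 11719 and 814 on the bzip1-1 arrays with nitrogen, so that the array of number 3 was low for both, and the differences were -1.20 (SE 0.75) for NIA1 and -1.46 (SE 0.98) for NIR1.

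The 5 genes of smallest p for the difference between the genotypes had changes from -0.69 to 0.35 in WT-sib. AT1G23040 had 489, 683 and 424 without nitrogen and 345, 250 and 386 with it in WT-sib, a change of -0.69, against 0.82 in bzip1-1, a difference of -1.52 (SE 0.41, unadjusted p = 0.0015). ZIP1 (AT3G12750), a zinc transporter, had -0.55 against 1.08, a difference of -1.63 (SE 0.48, unadjusted p = 0.0027). AT3G23080 had 0.35 against -0.72, a difference of 1.06 (SE 0.29, unadjusted p = 0.0016). AT2G45010 had -0.04 against 0.82 and GGR (AT4G38460) had -0.31 against 0.66. In WT-sib itself the groups overlapped for AT2G45010 and GGR.

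Probe sets that respond to nitrogen elsewhere in the study were then read in the 6 arrays. In the other 18 arrays the mean response of the 3 remaining settings raised 115 probe sets (0.506%) and lowered 17 (0.0747%). These arrays share no sample with the 6, although arrays of 1 replicate number may come from 1 experiment, and the selection was added after the data were seen. Of the 115 probe sets 105 (91.3%) had a value above 0 in WT-sib in the dark, beside 49.9% of all probe sets, and in 39 (33.9%) all +N-L arrays lay above all -N-L arrays, beside 3.68%. None lay wholly the other way. Their median change was 0.55 in these 6 arrays and 1.14 in the other 18, with 1.39 in WT-sib in light, 0.62 in bzip1-1 in the dark and 1.57 in bzip1-1 in light. The choice on those 18 arrays favours large values there, so these medians do not compare the size of the response between settings. Only CIPK3 of them passed here. Chosen without the arrays labelled -N+L of number 1, the selection held 164 probe sets, of which 128 (78.0%) were above 0 here with a median of 0.36.

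The 17 lowered probe sets behaved alike. Of these 16 (94.1%) were below 0 in the dark and 7 (41.2%) had all +N-L arrays lower, beside 3.21% of all probe sets. Their median was -0.46 here and -0.62 in the other 18, where the choice favours large falls. AT2G42360, a RING-type ubiquitin ligase, had 257, 350 and 410 without nitrogen and 97.9, 107 and 190 with it, a change of -1.40 (SE 0.33). CAX7 (AT5G17860), a cation exchanger, had 868, 1366 and 1321 against 438, 482 and 860, a change of -1.04 (SE 0.37). NAC041 (AT2G33480), a NAC transcription factor, had 671, 1272 and 730 against 509, 420 and 466, a change of -0.88 (SE 0.23), and SAUR36 (AT2G45210), an auxin- and senescence-related gene, had -0.58 (SE 0.26). In each of these 4 genes the groups did not overlap, and for CAX7 the third +N-L array was just below the lowest -N-L array.

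**Figure D5:**
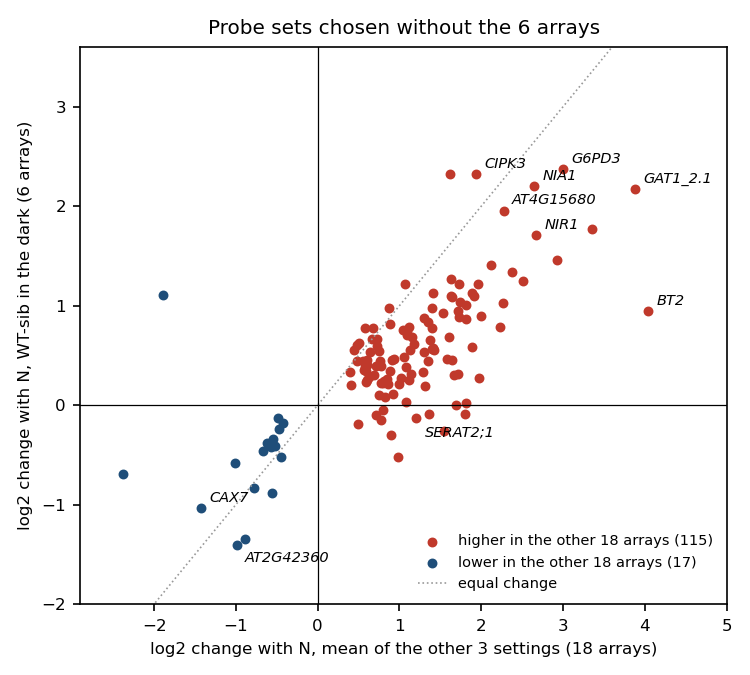
Log2 change with nitrogen in WT-sib in the dark (6 arrays) against the mean change in the other 3 settings (18 arrays), for the 115 probe sets raised (red) and 17 lowered (blue) in the latter, with a dotted line of equal change. Of the 115 red points 105 lie above 0, with a median of 0.55 on the vertical and 1.14 on the horizontal axis, and CIPK3 is among the few above the line. The points were chosen by the horizontal axis, which favours large values on it, so distance from the line does not compare the settings.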

How the data were processed

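Whole seedlings of WT-sib and bzip1-1 were profiled on 24 ATH1 arrays, 3 per group of genotype, nitrogen and light. As deposited, each array is a column of 22810 linear intensity values from MAS 5.0, which the authors had scaled so that the mean without the 2% at either end is 500. Detection calls are not among the values used here and replicates were not pooled. Arrays carry no sequencing depth, and 3 per group limit the precision. A label text speaks of samples before the treatment, while titles and methods give treated plants, and the titles were used. The methods call the replicates independent experiments. All deposited sample columns were used.

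After 64 control probe sets were set aside, log2 signal was fitted with limma 3.58.1 in R 4.3.3 (lmFit, eBayes with trend, 8 group means, no replicate term), with two-sided p adjusted by Benjamini-Hochberg over 22746 probe sets and a threshold of 0.05. The study itself fitted a plain ANOVA with an unadjusted p of 0.01, which was run as an alternative. Differences between light states or genotypes were contrasts of the same fit, which was tested on simulated data. Plots come from matplotlib 3.10.9 under Python 3.11.15.

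Genes named were, above the 40th percentile of mean signal and with 1 locus, the 5 of smallest p in each direction and in each of the 2 tests of a difference, with the members of 19 gene lists. The lists of phosphate starvation and iron had 0 measured members, and that of carbon skeletons had 1, CICDH, at 0.15. Members and lists were chosen with earlier results of these data known. Genes of the selection on 18 arrays, the glutaredoxins, AAE3 and AT1G05575 were named after their values were seen.

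A single locus was given by the platform's table for 13436 probe sets and by the study's tables of regulated genes for 876 more, 503 had several genes and 7931 were not named. Symbols and gene order follow the TAIR10.1 annotation of RefSeq. Alternatives were a replicate block, plain ANOVA on linear and log2 signal, no trend, quantile and median normalization, 32 added to the signal, a filter on dim probe sets, fewer arrays, an adjusted p of 0.20 and each array left out.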

Additional observations from a re-analysis of the deposited data

Results flagged for a closer look

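Of the genes named for a small p in the tests of a difference, 4 had groups that lay apart in opposite directions. Arrays with nitrogen lay wholly on one side in WT-sib in the dark and wholly on the other in the setting compared. The choice by p favours this pattern, and no test of the difference passed after adjustment. Over all probe sets 49 (0.215%) had this pattern against WT-sib in light and 42 (0.185%) against bzip1-1 in the dark. Groups apart in the same direction in both settings were more common, at 188 (0.827%) and 219 (0.963%). The tetraspanin TET5 was higher with nitrogen in the dark and lower in light, a difference of 1.26 (SE 0.32, unadjusted p = 0.00090), or 1.12 without the -N+L arrays of number 1. Against bzip1-1 the difference was -1.52 for AT1G23040, 1.06 for AT3G23080 and -1.63 for the zinc transporter ZIP1. ZIP1 had 139, 205 and 145 without nitrogen and 137, 69.5 and 137 with it in WT-sib.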

How the results depend on the processing

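CIPK3 passed in every alternative run, with a log2 change from 2.22 to 2.37 when no array was left out, and from 2.23 to 2.49 when 1 of the 6 arrays was. FRK1 did not pass by plain ANOVA on linear or log2 signal (adjusted p = 0.27 and 0.052) nor without an array of number 2. The number passing, 2 (1 higher, 1 lower), ran from 1 to 6 with single arrays left out, from 1 to 2 higher and from 0 to 5 lower. It was 1 without the -N-L array of number 2 and without the +N-L array of number 2, and 6 without the +N-L array of number 1, where 4 lower probe sets joined the pair. The highest count of 2 higher came without the -N-L array of number 3. List members passing ran from 1 to 2. By plain ANOVA 2 higher and 0 lower passed on linear signal, and 1 in all (1 list member, 0 lower) on log2 signal. At the unadjusted p of 0.01 of the methods, linear signal gave 172, of which 88 higher and 84 lower, with 137 for dark against light and 99 for WT-sib against bzip1-1. An adjusted p of 0.20 gave 2 lower. Without the -N+L arrays of number 1, 1 probe set passed for dark against light, AT1G05575 (-3.10, adjusted p = 0.037), and the selection on the other arrays lowered 31, as it did without dim probe sets, while without the trend it lowered 10.

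The numbers 1 to 3 recur in every group. Like-numbered arrays of the 2 groups deviated from their group means with r of 0.30, -0.04 and 0.28 across probe sets (0.64, -0.10 and 0.50 over the brighter ones). Of 6 arrays 4 correlated best with their own number. The labels do not say that a number marks a shared experiment and r was below 0 for number 2, so the main fit does not pair the samples. As a hint from the data, the control DapX-3 had 2282, 206 and 1498 on the -N-L arrays of number 1, 2 and 3 and 1672, 274 and 1300 on the +N-L arrays. With the replicate block 10 probe sets passed, 4 higher (CIPK3, AT3G19030 at an adjusted p of 0.029, NIA1 at 0.048 and AT4G15680 at 0.048) and 6 lower (FRK1, AT5G48430 at 0.026, AT4G28350 at 0.025, AT2G17740 at 0.048, AT1G49000 at 0.020 and an unnamed one), with 4 list members, SERAT2;1 passed for dark against light, 1 in all (adjusted p = 0.0022), and the selection on the other 18 arrays gave 349 higher and 141 lower. The 6 arrays alone gave the same count of 2 with and without the block. The sign turned for 3 genes with values near 0. UGT73B1 ran from -0.038 (without the +N-L array of number 2) to 0.39 over single arrays left out, SERAT2;1 from -0.28 to 0.010 (without the -N-L array of number 2), and AT2G45010 from -0.17 to 0.061 (above 0 without the -N-L array of number 2 or the +N-L array of number 3, and 0.0047 under a common median). Of list medians, 280 of 288 values stayed within the spread between arrays. Standard errors were larger for the dim probe sets, at a median of 0.74 against 0.26.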

Other observations

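Glutaredoxins, small thiol oxidoreductases, were looked at after some high values among them had been seen. The study's tables, chosen on these samples, describe 11 probe sets as of this family, so the counts are not independent evidence of a direction. None of the 11 passed in the main fit, beside 0.00879% of all probe sets, and 9 were above 0, beside 49.9%. In 2 all +N-L arrays were higher and in none all lower, beside 3.68% and 3.21%. The median change was 1.09 with a range from -0.98 (AT4G33040) to 2.06 (AT4G15690). AT4G15680 had 365, 279 and 680 without nitrogen and 1276, 2197 and 1447 with it, a change of 1.96 (SE 0.55), and was higher in 3 of 3 arrays, as was AT4G15690 (SE 0.98). AT4G15660, AT4G15700 and AT3G62930 had 1.10, 1.09 and 1.13 with overlapping groups, while GRX480 had 0.27, AT5G18600 0.24 and AT1G06830 -0.03. The +N-L array of number 2, the lowest of the 3 for nitrite reductase, was the highest for AT4G15680. The probe sets of such close relatives may share target RNA.

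AAE3 (AT3G48990), an oxalyl-CoA synthetase, had 4589, 4547 and 6067 without nitrogen and 8655, 10234 and 10972 with it, a change of 0.98 (SE 0.24), the values lying apart.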
